A study of Homo sapiens with 6 samples.

Results

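Epithelial cells hold together through E-cadherin junctions, while mesenchymal cells loosen them and move, and a small set of regulators sets which state a cell adopts. The 10 genes described here are such regulators, chosen by name from the 60675 genes of the count table. They are the cadherins CDH1 (E-cadherin) and CDH2 (N-cadherin), the epithelial adhesion molecule EPCAM, the splicing factors ESRP1 and ESRP2, the epithelial transcription factor GRHL2, and the transcription factors ZEB1, ZEB2, SNAI2 and TWIST1, which repress epithelial genes. All 10 were matched by symbol, and 9 had enough reads to be tested. GRHL2 did not.

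As background, ZEB, SNAIL and TWIST proteins bind short DNA motifs called E-boxes, and ZEB and SNAIL proteins recruit corepressors to the promoters of CDH1 and other epithelial genes. GRHL2 acts in the opposite direction by keeping epithelial genes active, and ESRP proteins direct the splicing of exons used in epithelial cells. ZEB transcripts are themselves targets of the miR-200 microRNAs, and the ZEB proteins repress the miR-200 genes in turn.

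The cells were HEK293, an established human line from embryonic kidney, labelled wild type in 3 control libraries and MOCS2 RNAi knockdown in the other 3. Both groups grew in high-glucose DMEM with fetal bovine serum and the selection drug Geneticin, and the labels give no other treatment. Neither the RNAi construct nor whether the knockdown cells were 1 clone is given in the sources used here, and the labels do not say that replicates were separate cultures, so p-values measure only the spread between these libraries, and that spread may be technical. Total RNA was sequenced, with 17958632 to 22171106 reads assigned to genes per library.

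MOCS2, which encodes the subunits of molybdopterin synthase, checks the labels. It stood at 57.8, 66.6 and 65.6 CPM (counts scaled to a common library size) in controls and at 69.8, 58.9 and 59.9 CPM in the knockdown-labelled libraries. The groups overlapped, so the targeted RNA goes against the label, and every direction below is set by the labels. Of 8 markers known from HEK293 cells, all had reads in every library, though PAX2 reached only 0.905 to 1.62 CPM. Of 19 markers of immune, endothelial, fibroblast, kidney and liver cells, 11 to 14 were below 1 CPM in each library. Their summed level ran from 58.3 to 90.6 CPM in controls and from 27.4 to 53.3 CPM in the knockdown-labelled libraries. LRP2, a receptor of kidney tubules, stood at 51.5 ± 17.7 CPM in controls and at 16.99 ± 6.29 CPM in the knockdown-labelled libraries. Without LRP2 the sum was 19.04 to 20.6 CPM in controls and 17.5, 34.1 and 19.6 CPM in knockdown 1, 2 and 3. The other markers were thus highest in knockdown 2, the knockdown-labelled library with CDH1 at the control level, and their part in that level was not tested. The tubule marker UMOD had 2 reads in knockdown 2 and 0 reads in the other 5 libraries, too few to tell these libraries apart. Reads outside genes made up 37.5% of the unique alignments of knockdown 2 and 21.5% to 24.95% of those of the other 5 libraries.

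The miR-200 family is shown because its seeds, the bases that pair with a target, define how it reads the ZEB transcripts. The 5 mature sequences come from RefSeq (GRCh38.p14), with bases 2 to 8 in capitals, and fall into 2 groups by seed. The first 3 share AAUACUG and the last 2 share AACACUG.
hsa-miR-200b-3p: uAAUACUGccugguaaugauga
hsa-miR-200c-3p: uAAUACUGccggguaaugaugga
hsa-miR-429: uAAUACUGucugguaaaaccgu
hsa-miR-200a-3p: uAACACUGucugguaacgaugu
hsa-miR-141-3p: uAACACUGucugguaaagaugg
The genes of miR-200b, miR-200a and miR-429 lie on chromosome 1, and those of miR-200c and miR-141 on chromosome 12. MIR200CHG, the host transcript on chromosome 12, had 1 read in control 1, 1 read in control 2 and 0 in the other 4 libraries. The 5 hairpin genes had 0 reads in every library. Mature microRNAs are too short for a library of this kind, so their own levels were not measured. The host transcript was at or under the floor that a count of 0 allows (3 reads, or 0.135 to 0.17 CPM per library) in both groups.

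Levels were compared between the 10 genes only after division by length, as CPM per kilobase of annotated exons. EPCAM was highest in controls, at 72.1 ± 3.38 CPM per kb (SD, n = 3), followed by CDH2 at 48.9 ± 5.78 CPM per kb. TWIST1 came next at 8.86 ± 0.191 CPM per kb and ZEB1 at 8.34 ± 0.721 CPM per kb, and these neighbours overlapped. ESRP2 followed at 5.19 ± 0.401 CPM per kb. ESRP1 (2.57 ± 0.361 CPM per kb) and ZEB2 (2.43 ± 0.215 CPM per kb) overlapped too. CDH1 stood at 1.9 ± 0.233 and SNAI2 at 1.03 ± 0.415 CPM per kb, and GRHL2 was last. The control cells therefore had reads from both epithelial and mesenchymal regulators, with EPCAM, ESRP1 and ESRP2 beside N-cadherin, ZEB1 and TWIST1. Exon lengths are those of all annotated transcripts together, so a gene with long rarely used exons, as ZEB2 may have, is set too low on this scale.

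**Figure D1:**
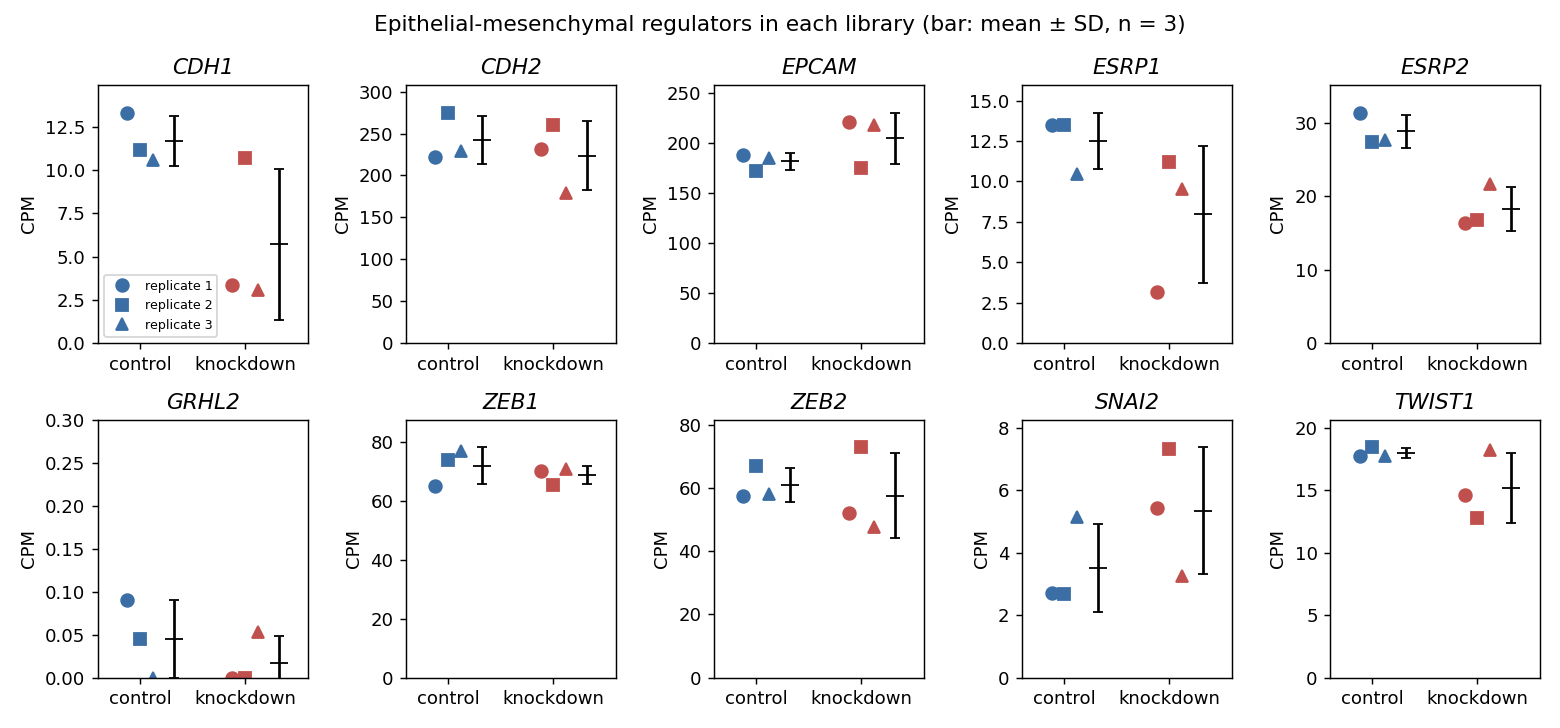
CPM of each of the 10 genes (vertical axes from 0, one scale per gene) in 3 control libraries (blue) and 3 knockdown-labelled libraries (red), with the replicate shown by the marker and the mean ± SD beside the points. ESRP2 is the 1 gene whose groups do not overlap, while CDH1 is low in knockdown 1 and 3 and at the control level in knockdown 2.

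Of the 9 regulators with enough reads, the quasi-likelihood test of edgeR called 0 at an adjusted p of 0.05, as it called 0% of all 18267 genes tested. At an unadjusted p of 0.05 it had 2 of the 9, CDH1 and ESRP2, both lower, where 20.5% of all tested genes passed, 9.93% higher and 10.6% lower. DESeq2 called 1 of the 9, ESRP2 (lower, adjusted p = 0.0254), where it called 6.94% of genes, 3.55% as lower, and limma voom called 0. The median log2 fold change of the 9 was -0.12, beside 0.02 over all genes tested, with 7 below 0 and 2 above. The groups did not overlap in 1 of the 9, ESRP2, below the controls, against 26.8% of all genes tested, 12.5% above and 14.3% below.

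CDH1, the calcium-dependent adhesion protein of epithelial junctions (ENSG00000039068, chromosome 16, 68737225 to 68835548, plus strand, GRCh38), split the knockdown-labelled libraries. It stood at 13.3, 11.2 and 10.6 CPM in controls and at 3.34, 10.7 and 3.06 CPM in knockdown 1, 2 and 3. Knockdown 1 and 3 lay far below every control, while knockdown 2 lay among the controls. In bulk RNA, fewer cells with CDH1 and less CDH1 RNA per cell cannot be told apart. The counts behind these values were 59, 202 and 58 reads in knockdown 1, 2 and 3, and the exact 95% Poisson intervals, which cover counting error only, were 2.54 to 4.30, 9.31 to 12.3 and 2.32 to 3.96 CPM. The fitted log2 fold change was -1.03 (standard error, SE, 0.42, 95% interval -1.96 to -0.11, edgeR adjusted p = 0.203), and the group means were 11.7 ± 1.44 and 5.71 ± 4.35 CPM. Without knockdown 2 the log2 fold change moved to -1.88 (edgeR adjusted p = 0.0921). Knockdown 2 is also the library with 37.5% of its reads outside genes, and the part of that share in its CDH1 level was not tested.

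CDH2, the cadherin of mesenchymal and neural cells (ENSG00000170558, chromosome 18, 27950966 to 28177446, minus strand), had overlapping groups. It stood at 222.3, 275.01 and 229.4 CPM in controls and at 231.2, 260.1 and 178.6 CPM in the knockdown-labelled libraries. Knockdown 1 and 2 lay within the control range and knockdown 3 below it. Its log2 fold change was -0.12 (SE 0.18, 95% interval -0.51 to 0.27, edgeR adjusted p = 0.737). Without knockdown 3 the sign turned, to 0.015. CDH1 reads came to 6.0, 4.07 and 4.63% of CDH2 reads in controls and to 1.44, 4.13 and 1.71% in knockdown 1, 2 and 3. This ratio does not depend on the scaling between libraries, and it separates knockdown 1 and 3 from the other 4 libraries.

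The other classical cadherins, a list of 16, had 9 members with enough reads. Of these, edgeR called 0, and 2 were lower and 0 higher at an unadjusted p of 0.05. That is 22.2%, beside 20.5% of all genes tested, and the median log2 fold change was -0.46. CDH3, P-cadherin, the gene next to CDH1, stood at 12.5, 11.7 and 13.9 CPM in controls and at 4.07, 10.8 and 7.65 CPM in the knockdown-labelled libraries. All 3 were below the controls, knockdown 2 only slightly (log2 fold change -0.76, SE 0.31, edgeR adjusted p = 0.202). CDH7 averaged 42.9 ± 6.69 and 23.1 ± 8.56 CPM, again with knockdown 1 lowest, at 14.02 CPM. Its log2 fold change of -0.89 (SE 0.26) had an edgeR adjusted p of 0.115 and a DESeq2 adjusted p of 0.0227. CDH11, a cadherin of mesenchymal cells, averaged 63.6 ± 12.8 and 43.9 ± 17.5 CPM. It stood at 33.1 and 34.6 CPM in knockdown 1 and 3 and at 64.04 CPM in knockdown 2. CDH8 averaged 1.52 ± 0.0752 and 2.55 ± 1.62 CPM and did not pass.

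Genes listed for the catenins and the cadherin complex, nectins among them, went different ways, and edgeR called 0 of 11 tested. At an unadjusted p of 0.05, 1 was higher and 1 lower, 18.2% beside 20.5% of all genes tested (median -0.12). JUP, plakoglobin, a catenin of adherens junctions and desmosomes, stood at 112.8, 106.6 and 130.8 CPM in controls and at 34.5, 61.97 and 81.2 CPM in the knockdown-labelled libraries, all 3 below the controls. Its log2 fold change was -0.98 (SE 0.26, edgeR adjusted p = 0.105, DESeq2 adjusted p = 0.0104). VCL, vinculin, which links junctions to actin, stood at 219.1, 208.8 and 258.2 CPM in controls and at 462.3, 725.4 and 198.1 CPM in the knockdown-labelled libraries. Knockdown 1 and 2 were above the controls and knockdown 3 below them, and the log2 fold change was 1.01 (SE 0.36, edgeR adjusted p = 0.158, DESeq2 adjusted p = 0.035), or 0.52 without knockdown 2. The main catenins of the E-cadherin complex had overlapping groups. CTNNB1, beta-catenin, averaged 537.7 ± 29.8 and 495.8 ± 131 CPM, and CTNNA1, alpha-catenin, 411.04 ± 8.97 and 472.01 ± 127 CPM.

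EPCAM, a surface adhesion molecule of epithelial cells (ENSG00000119888, chromosome 2, 47345158 to 47387601, plus strand), was the most abundant of the 10 per length and did not pass the test. It stood at 188.04, 171.9 and 184.7 CPM in controls and at 220.6, 174.6 and 218.2 CPM in the knockdown-labelled libraries. Knockdown 1 and 3, the libraries with the lowest CDH1, had the highest EPCAM values of the 6. The log2 fold change was 0.17 (SE 0.15, 95% interval -0.16 to 0.51, edgeR adjusted p = 0.546).

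**Figure D2:**
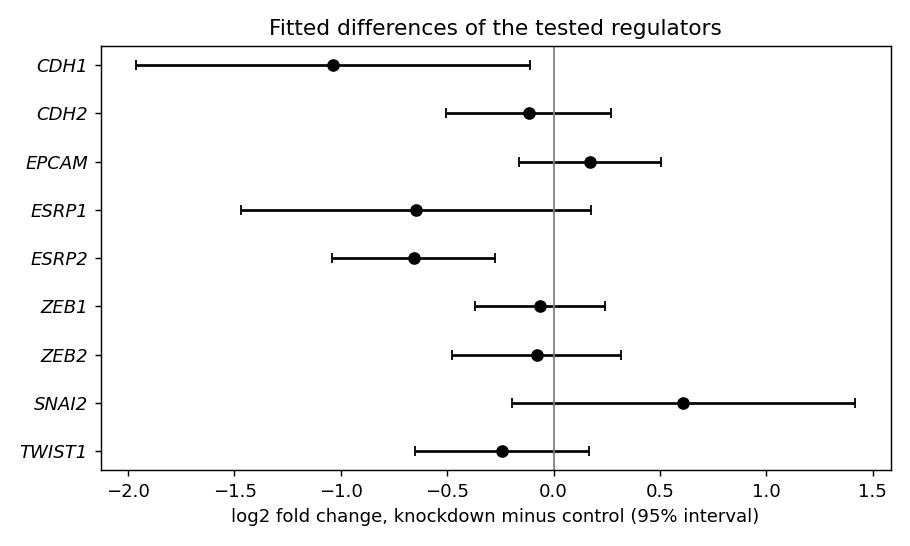
Fitted log2 fold change of the 9 tested genes, knockdown-labelled libraries minus controls (horizontal axis), with the 95% interval from the fit. The intervals of CDH1 and ESRP2 lie below 0 before any adjustment for the number of genes, and those of ZEB1 and ZEB2 lie within 0.5 of 0 on either side.

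Among 33 genes of epithelial junctions and surfaces, 26 were tested and edgeR called 0. At an unadjusted p of 0.05, 2 were higher and 4 lower, 23.1% in all, close to the 20.5% of all genes, and the median log2 fold change was -0.01. KRT19, a keratin of simple epithelia, averaged 110.8 ± 21.5 and 64.7 ± 12.3 CPM (log2 fold change -0.78, SE 0.19, edgeR adjusted p = 0.0979, DESeq2 adjusted p = 0.0117). ERBB3, a receptor of epithelial cells, averaged 20.5 ± 1.53 and 10.3 ± 5.14 CPM, with knockdown 1 lowest at 5.03 CPM, and SPINT2, an inhibitor of surface proteases, 161.9 ± 11.5 and 119.0 ± 12.97 CPM. TJP1, the tight junction scaffold ZO-1, was on the other side, at 181.2 ± 3.61 and 262.6 ± 30.4 CPM (log2 fold change 0.54, SE 0.15, edgeR adjusted p = 0.109, DESeq2 adjusted p = 0.0246). The groups of KRT19, ERBB3, SPINT2 and TJP1 did not overlap, and in the whole list 3 genes lay above the controls and 5 below without overlap, 30.8% in all, close to the 26.8% of all genes tested (12.5% above and 14.3% below). KRT8, the most abundant of the list by CPM, averaged 329.6 ± 68.9 and 376.1 ± 147 CPM.

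The 2 ESRP genes differed from each other in how the libraries fell. ESRP2 (ENSG00000103067, chromosome 16, 68229111 to 68238102, minus strand) stood at 31.4, 27.4 and 27.7 CPM in controls and at 16.3, 16.8 and 21.7 CPM in the knockdown-labelled libraries. It was the 1 gene of the 10 with every knockdown-labelled library below every control. Its log2 fold change was -0.66 (SE 0.17, 95% interval -1.04 to -0.27, edgeR adjusted p = 0.105), which is 0.634 of the control level. It passed with DESeq2 (adjusted p = 0.0254), where 6.94% of genes passed. It also passed in edgeR with no filter on low counts (adjusted p = 0.0431), a fit that called 1574 of 43251 genes. In edgeR without knockdown 3 it passed too (adjusted p = 0.0103), where 14.8% of all genes passed, 8.3% as lower. Its annotated span overlaps that of NFATC3 on the other strand by 149 bases, and in the sources used here the strand setting of HTSeq is not given.

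ESRP1 (ENSG00000104413, chromosome 8, 94641074 to 94707466, plus strand) stood at 13.5, 13.5 and 10.5 CPM in controls and at 3.17, 11.2 and 9.55 CPM in the knockdown-labelled libraries. Only knockdown 1 stood clearly apart, with 56 reads against 181 to 301 in the other 5 libraries and a Poisson interval of 2.39 to 4.11 CPM. The log2 fold change was -0.65 (SE 0.37, 95% interval -1.47 to 0.18, edgeR adjusted p = 0.348), and -0.27 without knockdown 1. ESRP1 reads came to 43.1, 49.3 and 37.7% of ESRP2 reads in controls and to 19.4, 66.8 and 43.9% in knockdown 1, 2 and 3.

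Splicing itself cannot be read from counts per gene, so the genes with ESRP-regulated exons are given by their total level only. Of 18 such genes edgeR called 0, with 2 higher and 1 lower at an unadjusted p of 0.05 and a median of -0.03. At that unadjusted threshold this is 16.7%, beside 20.5% of all genes tested. CD44, an adhesion receptor whose variable exons ESRP proteins promote, averaged 22.5 ± 15.3 and 72.7 ± 41.1 CPM, with 116.5, 66.7 and 34.98 CPM in knockdown 1, 2 and 3 and 18.4, 9.61 and 39.5 CPM in controls. Knockdown 3 lay within the controls, and the log2 fold change of 1.69 (SE 0.50) had an edgeR adjusted p of 0.118. It was 1.18 without knockdown 1. RAPGEF1 averaged 59.5 ± 1.49 and 79.98 ± 9.02 CPM, ITGA6, an integrin chain, 147.4 ± 19.5 and 110.8 ± 8.72 CPM, and ENAH, an actin regulator, 499.9 ± 12.9 and 659.8 ± 148 CPM. None of these passed. Of 16 tested splicing factors listed for epithelial-mesenchymal exon choice, edgeR called 0, and 1 was higher at an unadjusted p of 0.05 (6.25%, median 0.04). That gene, KHDRBS3, stood at 32.3, 35.7 and 15.6 CPM in knockdown 1, 2 and 3 beside 18.1 ± 0.937 CPM in controls.

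GRHL2 (ENSG00000083307, chromosome 8, 101492432 to 101669726, plus strand), which keeps CDH1 and other epithelial genes active in epithelial cells, was not detected above the floor. It had 2, 1 and 0 reads in controls and 0, 0 and 1 reads in the knockdown-labelled libraries. A count of 0 allows up to 3 reads, which is 0.151 CPM in control 3 and 0.17 and 0.159 CPM in knockdown 1 and 2. No fold is given. Both paralogs were detected and were lower in every knockdown-labelled library than in every control without passing the test. Over all genes tested, 14.3% were lower in this way. GRHL1 averaged 22.9 ± 1.81 and 16.3 ± 1.64 CPM (log2 fold change -0.49, SE 0.17, edgeR adjusted p = 0.149). GRHL3 averaged 2.76 ± 0.622 and 1.39 ± 0.639 CPM (log2 fold change -0.98, SE 0.39, edgeR adjusted p = 0.193).

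The list of other epithelial transcription factors, which holds GRHL1 and GRHL3, had 11 tested members of 15, of which edgeR called 0. At an unadjusted p of 0.05, 1 was higher and 3 lower, 36.4% beside 20.5% of all genes tested (median 0.02). Without overlap, 3 of the 11 lay below the controls and 0 above, 27.3% in all. Over all genes tested this share was 26.8%, 12.5% above and 14.3% below. FOXA2, a factor of endodermal epithelia, averaged 3.23 ± 0.592 and 1.29 ± 0.3004 CPM, with no overlap between groups (log2 fold change -1.32, SE 0.31, edgeR adjusted p = 0.0914, DESeq2 adjusted p = 0.0151). KLF5 stood at 38.3, 35.98 and 15.1 CPM in knockdown 1, 2 and 3 beside 16.9 ± 2.92 CPM in controls. FOXA1, the most abundant by CPM, had means of 28.2 ± 2.17 and 33.2 ± 6.71 CPM in control and knockdown-labelled libraries.

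The repressors ZEB1 and ZEB2 had nearly the same level in both groups. ZEB1 (ENSG00000148516, chromosome 10, 31318495 to 31529814, plus strand) stood at 65.1, 74.05 and 77.1 CPM in controls and at 70.2, 65.5 and 71.1 CPM in the knockdown-labelled libraries. The libraries interleave, and the log2 fold change of -0.06 had a 95% interval of -0.37 to 0.24 (SE 0.14, edgeR adjusted p = 0.821). ZEB1 was also the 1 gene of the 9 whose log2 SD was smaller among the knockdown-labelled libraries (0.06) than among the controls (0.13). ZEB2 (ENSG00000169554, chromosome 2, 144364364 to 144524583, minus strand) stood at 57.4, 67.1 and 58.2 CPM in controls and at 52.2, 72.9 and 47.8 CPM in the knockdown-labelled libraries. Knockdown 2 was the highest of the 6 and knockdown 3 the lowest, and the log2 fold change was -0.08 (SE 0.18, 95% interval -0.48 to 0.32, edgeR adjusted p = 0.834), or 0.033 without knockdown 3. In knockdown 1 and 3, where CDH1 was low, ZEB1 lay within the control range and ZEB2 below it. Antisense genes overlap both loci, ZEB1-AS1 by 1953 bases with 1404 reads over the 6 libraries and ZEB2-AS1 by 3500 bases with 19 reads. With the strand setting not given, the ZEB1 counts are uncertain by what ZEB1-AS1 may add or remove.

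SNAI2, or SLUG (ENSG00000019549, chromosome 8, 48917604 to 48921740, minus strand), stood at 2.7, 2.69 and 5.13 CPM in controls and at 5.43, 7.33 and 3.27 CPM in the knockdown-labelled libraries. The highest value was in knockdown 2, where CDH1 was at the control level, and knockdown 3, with low CDH1, was below control 3. The log2 fold change was 0.61 (SE 0.36, 95% interval -0.20 to 1.42, edgeR adjusted p = 0.366), ranging from 0.30 without knockdown 2 to 0.97 without control 3. TWIST1 (ENSG00000122691, chromosome 7, 19020991 to 19117672, minus strand) stood at 17.8, 18.5 and 17.8 CPM in controls and at 14.6, 12.8 and 18.3 CPM in the knockdown-labelled libraries. Knockdown 1 and 2 were below the closely spaced controls and knockdown 3 was among them (log2 fold change -0.24, SE 0.19, 95% interval -0.65 to 0.17, edgeR adjusted p = 0.482). The log2 fold change was -0.14 without knockdown 2 and -0.40 without knockdown 3.

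**Figure D3:**
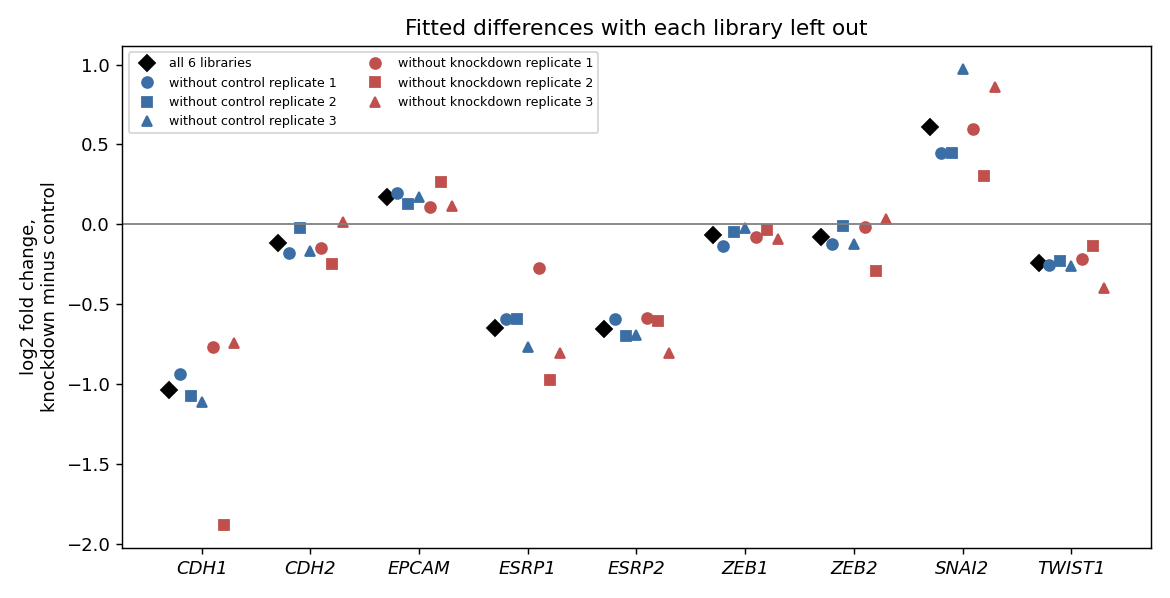
Log2 fold change (vertical axis) of the 9 tested genes with all 6 libraries (black) and with each control (blue) or knockdown-labelled library (red) left out. CDH1 runs from -1.88 without knockdown 2 to -0.74 without knockdown 3, ESRP1 from -0.98 to -0.27, and ESRP2 from -0.81 to -0.59.

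The list of other transcription factors of the mesenchymal transition also held ID1, ID2 and ID3. All 15 of its genes were tested and edgeR called 0. At an unadjusted p of 0.05, 1 was lower, 6.67% beside 20.5% of all genes tested (median 0.29). That gene was SNAI3, at 0.796 ± 0.117 and 0.3601 ± 0.0547 CPM (log2 fold change -1.13, SE 0.38, edgeR adjusted p = 0.149). FOXC1, the most abundant of this list by CPM, averaged 159.5 ± 15.4 and 144.0 ± 22.4 CPM. The E-proteins TCF4 and TCF12, which pair with TWIST1, averaged 108.2 ± 13.9 and 86.5 ± 2.7 CPM in controls and 90.6 ± 7.69 and 107.4 ± 26.5 CPM in the knockdown-labelled libraries.

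Of 14 corepressors of the ZEB and SNAIL proteins, edgeR called 0 and DESeq2 called 2, both higher, where DESeq2 called 6.94% of all genes. At an unadjusted p of 0.05 in edgeR, 2 were higher and 0 lower, 14.3% beside 20.5% of all genes tested (median 0.09). RCOR1, a scaffold that joins the demethylase KDM1A to histone deacetylases, stood at 42.6, 39.8 and 49.6 CPM in controls and at 75.8, 58.6 and 64.7 CPM in the knockdown-labelled libraries, with no overlap (log2 fold change 0.59, SE 0.16, edgeR adjusted p = 0.106, DESeq2 adjusted p = 0.0285). WTIP, a LIM protein, averaged 21.3 ± 3.46 and 39.9 ± 20.3 CPM, with 62.9 CPM in knockdown 1. Its log2 fold change was 0.90 (edgeR adjusted p = 0.146), or 0.41 without knockdown 1. HDAC1 and HDAC2, the deacetylases, lay on opposite sides, at 163.3 ± 15.5 and 126.8 ± 22.8 CPM for HDAC1 and at 381.2 ± 14.2 and 450.8 ± 67.0 CPM for HDAC2, and neither passed. KDM1A itself averaged 288.3 ± 16.7 and 274.9 ± 57.2 CPM. Without overlap, 4 of the 14 corepressors lay above the controls and 1 below, 35.7% in all. Over all genes tested this share was 26.8%, 12.5% above and 14.3% below.

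E-boxes of the kind that ZEB and SNAIL proteins bind were searched for as CACCTG on either strand, in RefSeq windows of 300 bases from 250 before to 50 after a start. Windows were at hand for 3 of the 10 genes. They held a match in 2 of 7 windows of ZEB1, in 0 of 2 of CDH2 and in 0 of 1 of ZEB2, beside 20.6% of all 35116 windows.

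Mesenchymal effector genes spread widely. Of 20, 17 were tested, edgeR called 0, and 6 were higher and 2 lower at an unadjusted p of 0.05, which is 47.1% of the list beside 20.5% of all genes. The median log2 fold change was 0.19, and DESeq2 called 1, VIM, where it called 6.94% of all genes. VIM, the mesenchymal intermediate filament protein vimentin, stood at 815.5, 676.9 and 921.8 CPM in controls and at 1527, 1288 and 1017 CPM in the knockdown-labelled libraries, with no overlap (log2 fold change 0.67, SE 0.20, edgeR adjusted p = 0.12, DESeq2 adjusted p = 0.0235). TNC, the matrix protein tenascin C, stood at 272.5 and 248.6 CPM in knockdown 1 and 2, against 66.3 CPM in knockdown 3 and 83.7 ± 25.2 CPM in controls. ITGB1, an integrin chain, averaged 583.7 ± 54.3 and 588.2 ± 70.9 CPM. The libraries with high TNC were knockdown 1 and 2, while those with low CDH1 were knockdown 1 and 3.

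**Figure D4:**
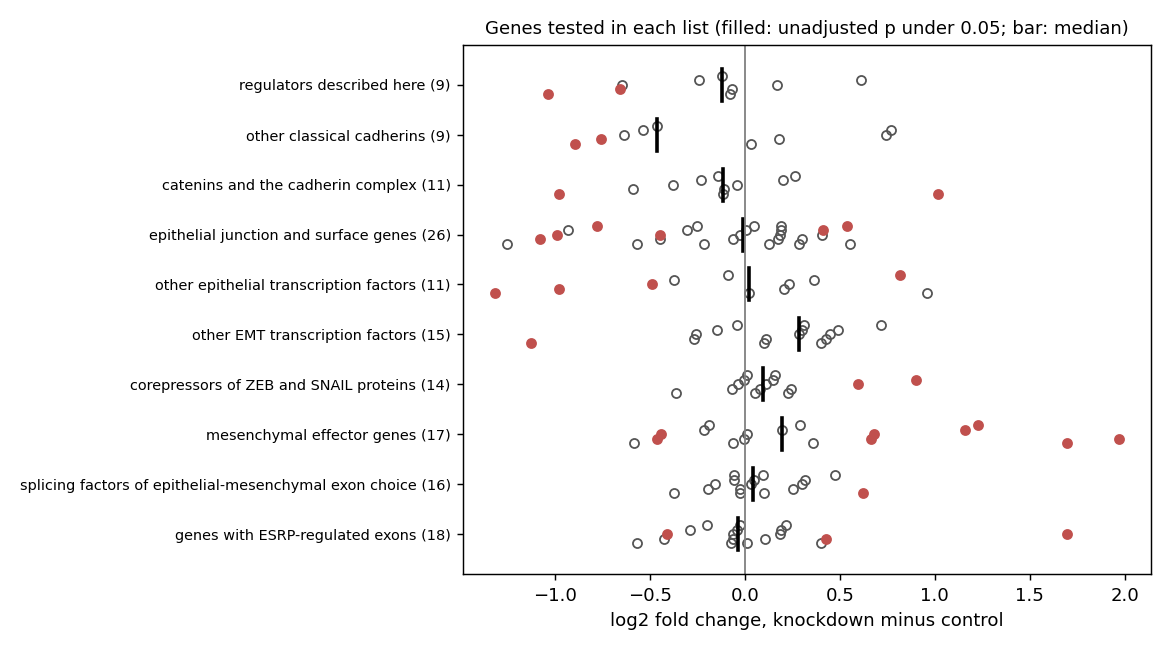
Log2 fold change (horizontal axis) of each tested gene in the 9 tested regulators and in the lists described in the text, with the number tested in brackets. Filled points have an unadjusted edgeR p under 0.05 and bars mark medians, which run from -0.46 in the other classical cadherins to 0.29 in the other transcription factors of the mesenchymal transition.

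The knockdown-labelled libraries spread more than the controls in 8 of the 9 genes, and in 76.6% of all genes tested. The SD of log2 CPM was 0.99 for CDH1 and 0.98 for ESRP1 among the knockdown-labelled libraries, against 0.17 and 0.21 among controls, beside medians over all genes of 0.31 and 0.16. Relative to the control mean, CDH1 was at -1.78, -0.12 and -1.90 on the log2 scale in knockdown 1, 2 and 3, and ESRP1 at -1.94, -0.15 and -0.38. Both genes were low in knockdown 1 and close to the controls in knockdown 2, and in knockdown 3 CDH1 was low while ESRP1, at 9.55 CPM, was slightly below the lowest control (10.5 CPM).

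Genes with a like pattern were sought among 12470 protein-coding genes of at least 2 CPM, by the root-mean-square difference of log2 CPM over the 6 libraries after each gene was centred on its mean. The nearest to CDH1 was PROM1, the stem and progenitor cell surface protein CD133, with a difference of 0.221. PROM1 stood at 7.95, 9.97 and 7.3 CPM in controls and at 2.6, 8.29 and 2.9 CPM in the knockdown-labelled libraries. The search picked genes by this pattern, so the likeness in knockdown 2 is not a separate result. STS, steroid sulfatase (0.274), and CHST9, a sulfotransferase (0.289), followed. The nearest to ESRP1 were HCFC1R1 (0.165), COL6A1, a collagen VI chain (0.17), and ALDH1L2, a mitochondrial folate enzyme (0.172). Among those nearest to SNAI2 were NWD2 (0.124) and VASN (0.136).

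CDH1 and ESRP2 lie on the same arm of chromosome 16, with starts 499.1 kb apart, and the genes between them were looked at after the values of both were seen. Of 9 other tested genes in this stretch of 606.4 kb, 5 had a negative log2 fold change, with a median of -0.02. These 9 genes did not share a direction. CDH3, next to CDH1, and PRMT7, an arginine methyltransferase at 50.3 ± 1.7 and 39.9 ± 2.16 CPM, were below the controls in every knockdown-labelled library. Over all genes tested, 14.3% lay below the controls in this way, and 26.8% did not overlap in either direction. SMPD3, a sphingomyelinase, was higher, at 1.54 ± 0.593 and 5.43 ± 3.67 CPM, with overlap between groups. The other 6 genes had overlapping groups. Of the remaining members, ESRP1, GRHL2 and SNAI2 lie far apart on chromosome 8, and EPCAM and ZEB2 on chromosome 2.

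**Figure D5:**
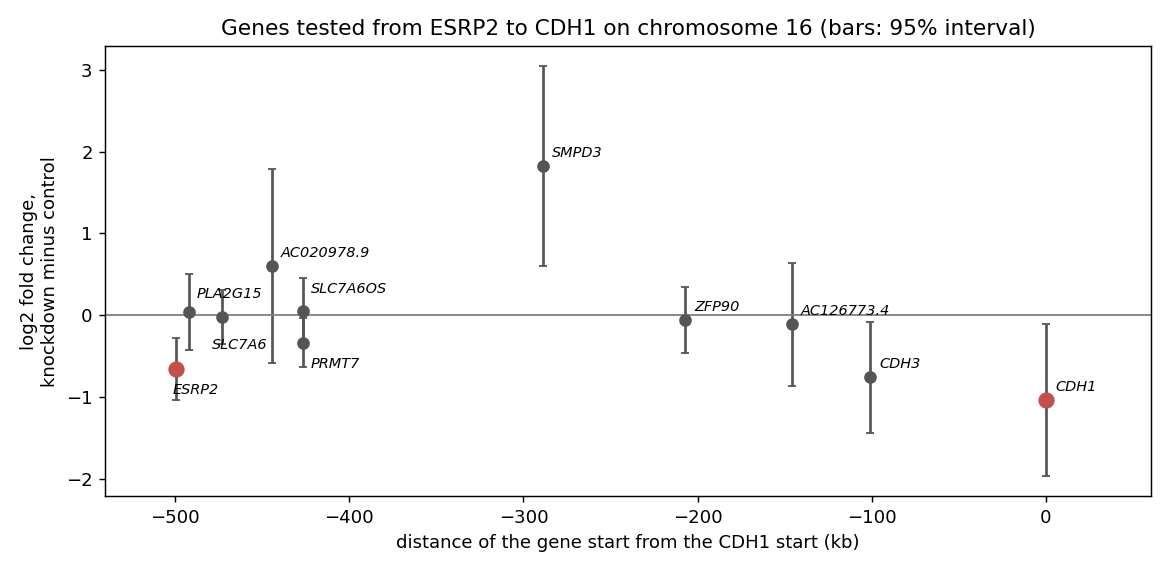
Log2 fold change (vertical axis, with 95% intervals) of the 11 genes tested between ESRP2 and CDH1 on chromosome 16 against the distance of each gene's start from that of CDH1 in kb (horizontal axis). CDH1 and ESRP2 (red) lie at the ends of the stretch, with 6 of the 9 genes between them within 0.5 of 0.

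MIR34AHG, the host transcript of miR-34a, a microRNA that targets SNAIL transcripts, was the 1 microRNA host with enough reads to test. It stood at 18.8, 15.99 and 15.2 CPM in controls and at 9.1, 53.6 and 10.4 CPM in the knockdown-labelled libraries. Knockdown 2 was far above the controls and knockdown 1 and 3 were below them, and the groups overlapped (log2 fold change 0.55, SE 0.55, edgeR adjusted p = 0.6003). Knockdown 2 alone set that sign, since the log2 fold change was -0.78 without it (edgeR adjusted p = 0.11) and 0.94 without knockdown 1, and limma voom with all libraries gave 0.057. Knockdown 1 and 3 were the libraries with low CDH1, and this order of libraries was seen after the values.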

How the data were processed

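Per the submitters' processing notes, reads were handled with bcl2fastq 2.18, TopHat2 2.0.13 and HTSeq on hg38. In the sources used here, the HTSeq version, annotation release and strand setting are not given. The authors deposited raw read counts per Ensembl gene, 1 column per library, in 60675 gene rows and 5 special rows of unassigned reads, which entered neither library sizes nor tests. Symbols, coordinates and exon lengths came from GENCODE release 29 by Ensembl identifier (57055 matched, 3620 without a symbol).

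All genes were fitted together with edgeR 4.0.16 in R 4.3.3 (TMM factors, filterByExpr, quasi-likelihood F test, two-sided), with Benjamini-Hochberg adjustment over the 18267 genes tested. Log2 CPM used a prior count of 2. Alternatives used DESeq2 1.42.0, limma 3.58.1, other scalings and filters, a replicate block and each library left out. The fit was tested on simulated counts drawn with the same dispersion in both groups. That test therefore does not cover the wider spread of the knockdown-labelled libraries. Every pair of replicates differed beyond sampling noise, with chi-square values of 11.6 to 75.2 per degree of freedom. The 10 genes and the lists were chosen with earlier results of these data known. In each list the text names the 4 genes with the smallest unadjusted p and the 2 most abundant, or some of these, beside nearest patterns for the 3 most variable members. A few genes that this rule names are not reported here. Of 207 list entries, 206 were matched.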

Additional observations from a re-analysis of the deposited data

Results flagged for a closer look

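Reads outside genes made up 37.5% of the unique alignments of knockdown 2, above the 23.6% to 24.95% of the controls. These reads enter none of the comparisons. Of the 9 regulators tested, 5 (CDH1, CDH2, ESRP1, ZEB2 and SNAI2) were highest in knockdown 2 among the 3 knockdown-labelled libraries and 3 (EPCAM, ZEB1 and TWIST1) were lowest there, beside 36.6% and 36.1% of all genes tested. The part of the reads outside genes in these levels was not tested. GRHL2 had 0 reads in that library.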

How the results depend on the processing

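The replicate numbers gave no clear pairing. Same-numbered libraries had correlations of their deviations across genes of 0.11, -0.17 and -0.12, and differently numbered libraries of -0.08 to 0.19. With 3 libraries per group, these values cannot decide whether libraries were paired. With the replicate number as a block, edgeR called 19 genes in all (6 higher and 13 lower), 0 of the 9 regulators and 0 in every list, as the fit without the block did for the regulators and lists.

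DESeq2 called 1145 genes in all, 6.94% of those it gave an adjusted p. Among them were 1 regulator, 1 other cadherin, 2 catenin-complex genes, 3 junction genes, 1 epithelial factor, 2 corepressors and 1 mesenchymal effector. With no filter edgeR called 1574 of the 43251 genes then tested. These included 2 regulators (CDH1 and ESRP2), 2 other cadherins, 3 catenin-complex genes, 3 junction genes, 2 epithelial factors and 1 corepressor. Also called were 3 mesenchymal effectors and 1 gene with ESRP-regulated exons. With each library left out the calls ranged from 0 to 2815 in all, 0 to 1 for the regulators, 0 to 3 for the catenin complex, 0 to 8 for junction genes, 0 to 2 for epithelial factors, 0 to 1 for other mesenchymal factors, 0 to 2 for corepressors, 0 to 6 for mesenchymal effectors, 0 to 1 for splicing factors and 0 to 2 for ESRP-regulated genes. Each highest value came without knockdown 3, and the cause was not tested. Limma voom, the stricter filter and the other 2 scalings called 0 in all of these.

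Of the genes refitted, the sign turned for 3, CDH2 and ZEB2 without knockdown 3 and MIR34AHG without knockdown 2. With each library left out, the log2 fold change of CDH2 ranged from -0.25 to 0.015, that of ZEB2 from -0.29 to 0.033 and that of MIR34AHG from -0.78 to 0.94. Of 415 values for 32 genes under the alternatives, 371 kept their direction and side of the threshold and 41 kept their direction and passed it. GRHL2 and the miR-200 host had too few reads for a difference to be detectable.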
